A study of Mus musculus with 9 samples.

Results

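Whole skin of the transgenic mouse line L60 (2 arrays, L60 1 and L60 2) was set against control skin (LC, 3 arrays, LC 1 to LC 3). The arrays were chosen by sample title, 5 of the 9 arrays of a series that also holds the transgenic lines L84 and LA with 2 arrays each. The series title concerns mice with constitutively active Akt, defects of ectodermal organs and impaired bone morphogenetic protein (BMP) signalling. The mice of all 9 arrays were of mixed background (C57BL, DBA and FVB) and 30 days old, and each array received RNA from 30 mg of tissue, pooled within a genotype. The construct, the promoter that drives it, how L60 differs from L84 and LA, the number and sex of the mice in a pool, and whether the LC mice were littermates are not given in the sources used here. The p-values therefore measure only the spread between these pools, and the number of arrays limits the precision. The deposited value is a score, standardised for each probe set to mean 0 and SD 1 over the 9 arrays, so a difference is counted in SDs and carries neither a level nor a fold. All 12393 genes named by a probe set of their own were compared.

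Hair grows from the matrix, a pocket of dividing keratinocytes around the dermal papilla at the base of the follicle. Cells that leave the matrix switch on lineage-specific keratins in a set order. They form the hair shaft, whose hair keratins are cross-linked by small keratin-associated proteins, and the inner root sheath, which has keratins of its own and trichohyalin. BMP signals reach the nucleus through Smad proteins and act in the matrix as cells stop dividing and differentiate, in part upstream of the transcription factors Msx2 and Foxn1. Akt is a kinase downstream of growth factor receptors and PI3-kinase that promotes growth and survival.

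In a linear model fitted gene by gene with limma, each gene keeping its own variance, 0 of 12393 genes (0.0%) differed between L60 and LC at a Benjamini-Hochberg adjusted p under 0.05. With limma's moderated variance the count was also 0. An unadjusted p under 0.05 was found for 304 genes higher in L60 (2.45%) and 281 lower (2.27%), and for 465 genes in all with moderated variance. Leaving out L60 2 brought 5 genes past the threshold, all lower in L60: Krt81, Krtap14, Krtap15, Krtap8-1 and the predicted gene Gm10229. Without each of the other 4 arrays of the comparison the count was 0. Both L60 arrays lay above all LC arrays for 1779 genes (14.4%) and below all of them for 1337 (10.8%), and the median difference over all genes was 0.0777. "Below" and "above" all LC arrays are used in this sense throughout, and none of the genes named passed the test against LC.

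Across the 12393 genes, the scores of the 2 L60 arrays had a correlation of -0.0228, given here as a description. Probe sets for 18S ribosomal RNA averaged 2.09 on L60 1 and -0.642 on L60 2, against 1.13 on LC 1, -0.629 on LC 2 and -0.556 on LC 3. Gapdh, a housekeeping enzyme, scored -1.81 and 0.247 at its 3′ probe set on the L60 arrays, against -1.49, 0.102 and 0.218 on the LC arrays, so that L60 1 and LC 1 were also the low arrays there. Differences are therefore also given within like arrays, as L60 1 minus LC 1 (both high in 18S) and as L60 2 less the average of LC 2 and LC 3. Genes higher in both of these differences made up 30.2% of all genes, and genes lower in both 22.5%. Xist, transcribed from the inactive X chromosome of females, scored -0.900 and 1.48 on the L60 arrays, against -0.915, 0.604 and 0.632 on the LC arrays. The part of 18S, Gapdh or Xist in the differences between single arrays was not tested. Keratinocyte, hair, pigment, muscle, fat, immune and nerve markers were all measured, but a score cannot show whether a marker was absent.

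Akt1, the kinase named in the title, scored -0.540 and 0.417 on the L60 arrays, against -0.457, -0.0573 and 0.0461 on the LC arrays. One L60 array lay below and the other above every LC array. The difference was 0.0947 ± 0.595 (SE), and its 2 probe sets gave -0.285 and 0.474. Whether either probe set lies within the transgene transcript is not given in the sources used here. Akt2 differed by -0.920 ± 0.619. Of 25 genes of the Akt and PI3-kinase pathway, 2 lay above and 2 below all LC arrays (beside 14.4% and 10.8% of all genes). The list's median difference was 0.0947, and ran from -0.0988 without L60 1 to 0.193 without L60 2. The members above were Irs1, an adaptor of the insulin receptor, and Inpp5d, a phosphatase that removes the lipid signal of PI3-kinase. Those below were Mdm2, which marks p53 for degradation, and Gsk3a, a kinase that Akt inhibits.

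The structural genes of the hair shaft made up the group with the most uniform difference. All 12 hair shaft keratins measured scored below every LC array on both L60 arrays, where 10.8% of all genes did, with a median difference of -1.04. The list's median score was 0.218 on L60 1 and 0.246 on L60 2, against 1.20, 1.06 and 1.11 on LC 1, LC 2 and LC 3. The difference was of like size within the arrays high in 18S (-1.12) and within the others (-0.913). Against the same LC arrays the medians were -2.12 in L84 and -2.07 in LA, so the L60 arrays stood between the other lines and the controls. Fewer cells making hair and less RNA per such cell cannot be told apart in whole skin.

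Krt34, an acidic keratin of the hair cortex, had the smallest adjusted p of all genes. It scored 0.102 and 0.125 on the L60 arrays, against 1.26, 1.23 and 1.11 on the LC arrays, a difference of -1.08 ± 0.0528 (limma adjusted p = 0.0632). Krt86, a basic hair keratin, scored 0.0305 and 0.209 on the L60 arrays, against 1.29, 1.15 and 1.14 on the LC arrays (-1.07 ± 0.0897). For both genes the gap between the groups was wider than the range within either. The L60 score of Krt34 was 1.14 above that of L84 (adjusted p = 0.0151) and 0.990 above that of LA (adjusted p = 0.0126), both past the threshold.

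The promoters of 4 hair genes that lie on chromosome 11 are shown because these genes differ in how far L60 stood below LC. Krt34 and the keratin-associated protein gene Krtap9-3 had large differences and the cortical keratin Krt31 a smaller one. The inner root sheath keratin Krt25 had the smallest of the 4. Each is the 250 bases before the transcription start in RefSeq's annotation of GRCm38.p6, read 5′ to 3′ on the minus strand. The windows are chr11:100041555-100041804 for Krt34, chr11:100050552-100050801 for Krt31, chr11:99598107-99598356 for Krtap9-3 and chr11:99322952-99323201 for Krt25. Capitals mark TATAAA, the TATA box, and CTTTGA, a core sequence that LEF1 and TCF factors bind.
Krt34: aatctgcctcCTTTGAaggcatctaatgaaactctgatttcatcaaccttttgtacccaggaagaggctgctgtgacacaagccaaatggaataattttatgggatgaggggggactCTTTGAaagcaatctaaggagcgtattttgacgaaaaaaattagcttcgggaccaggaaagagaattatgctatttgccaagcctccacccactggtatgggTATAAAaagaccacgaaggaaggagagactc
Krt31: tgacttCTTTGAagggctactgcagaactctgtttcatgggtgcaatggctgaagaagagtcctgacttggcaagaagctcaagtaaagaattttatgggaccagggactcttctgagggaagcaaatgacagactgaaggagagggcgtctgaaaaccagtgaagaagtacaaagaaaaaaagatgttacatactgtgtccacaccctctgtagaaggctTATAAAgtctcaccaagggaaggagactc
Krtap9-3: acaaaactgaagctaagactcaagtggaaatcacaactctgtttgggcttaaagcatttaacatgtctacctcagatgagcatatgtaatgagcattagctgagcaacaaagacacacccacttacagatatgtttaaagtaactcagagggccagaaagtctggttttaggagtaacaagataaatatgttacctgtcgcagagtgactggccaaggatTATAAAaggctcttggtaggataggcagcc
Krt25: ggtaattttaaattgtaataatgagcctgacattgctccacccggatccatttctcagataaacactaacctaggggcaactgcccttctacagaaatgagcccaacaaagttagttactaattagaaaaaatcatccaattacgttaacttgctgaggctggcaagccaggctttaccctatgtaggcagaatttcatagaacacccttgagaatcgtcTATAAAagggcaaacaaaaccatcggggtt

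TATAAA begins 29 to 31 bases before the start in all 4 windows, and CTTTGA occurs 2 times in Krt34 and 1 time in Krt31. Both strands were searched (as TATAAA or TTTATA, and CTTTGA or TCAAAG), and these 2 motifs cannot overlap each other. RefSeq promoters matched 7 of the 12 hair shaft keratins, 25 of the 26 keratin-associated proteins and 13 of the 14 inner root sheath and medulla genes. TATAAA was found in 5 of the 7, 18 of the 25 and 7 of the 13, against 3504 of all 27025 promoters. CTTTGA was found in 4 of the 7, 8 of the 25 and 1 of the 13, against 3797 of all promoters. A match of 6 letters is a description of the window and does not show a bound factor.

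The hair shaft keratins differed among themselves in how far L60 stood below LC. In L84 and LA all but Krt32 had differences from LC of -1.86 to -2.23. Each probe set is scaled over all arrays of the series. This scaling alone draws genes low on every L84 and LA array to differences of similar size. The narrow range in L84 and LA therefore does not show that these keratins fell equally there. The smallest difference of L60 from LC was that of Krt35, which in human follicles is among the first hair keratins made in the matrix and precortex. Krt35 scored 0.694 and 0.682 on the L60 arrays, against 0.911, 0.986 and 0.910 on the LC arrays, a difference of -0.248 ± 0.0855 beside -1.93 in L84 and -2.03 in LA. Krt31 followed at -0.601 ± 0.0866, Krt33a at -0.682 ± 0.0582 and Krt33b at -0.805 ± 0.149, all acidic keratins of the cortex. The basic cortical keratins Krt81 and Krt83 stood at -1.01 ± 0.165 and -1.19 ± 0.205, and Krt36 at -1.31 ± 0.132.

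The cuticle keratins Krt82 and Krt32 differed by -0.939 ± 0.409 and -1.10 ± 0.582, with arrays of each group far apart. Krt32, for example, scored 0.418 and -0.650 on the L60 arrays, against 1.5, 0.607 and 0.863 on the LC arrays. The largest difference, that of Krt84 (-1.63 ± 0.418), rested on arrays that also disagreed: it scored -0.764 and -0.0391 on the L60 arrays, against 1.14, 1.09 and 1.45 on the LC arrays. Krt84 is a tongue keratin in humans. Tested directly, 4 of the 12 hair shaft keratins scored higher in L60 than in L84 past limma's threshold (Krt31, Krt33a, Krt34 and Krt35), where 0.0968% of all genes did and 0.0161% scored lower. The same 4 and Krt86 scored higher in L60 than in LA, where 0.46% of all genes did. The differences were 1.52 for Krt31 and 1.69 for Krt35 over L84, and 1.44 and 1.78 over LA.

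**Figure D1:**
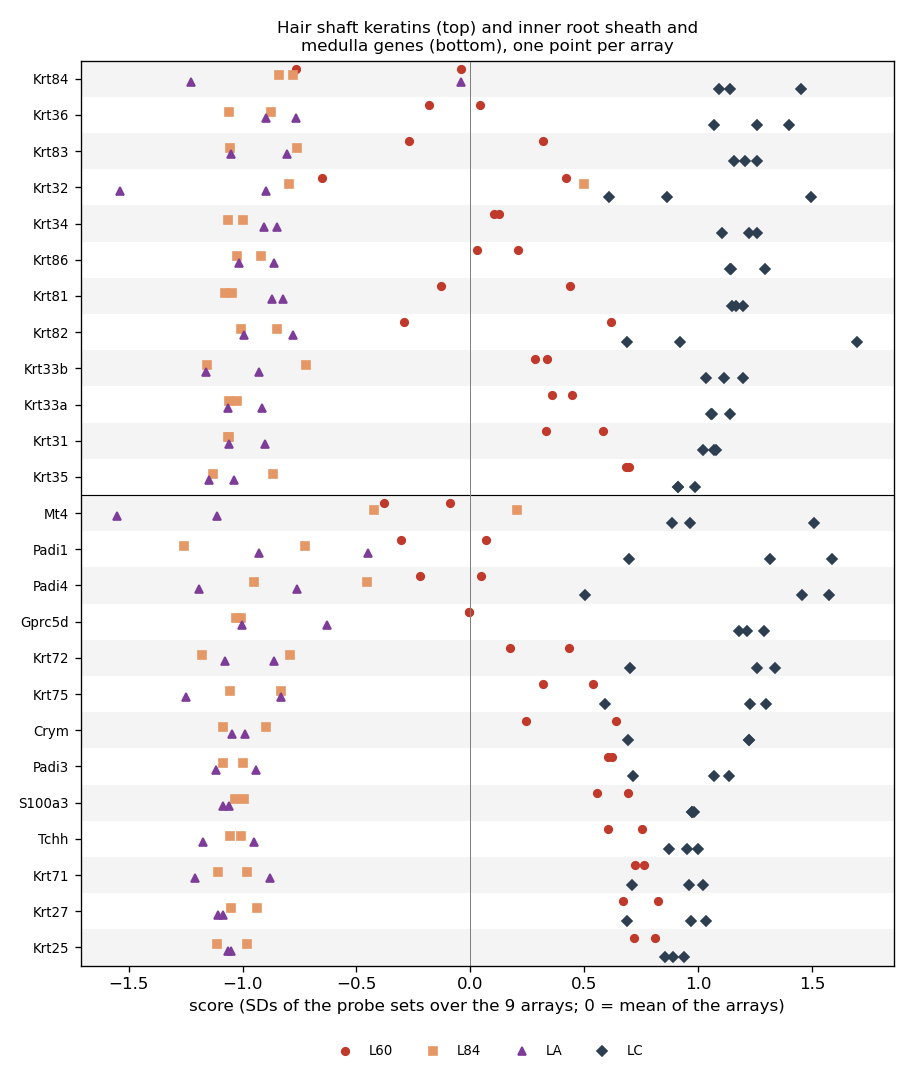
Scores of the 12 hair shaft keratins (top) and of 13 inner root sheath and medulla genes (bottom, all but Gata3) on each array; the horizontal axis is the score in SDs of the probe sets over the 9 arrays, and points are single arrays of L60, L84, LA and LC. For Krt34 the L60 arrays (0.102 and 0.125) lie between the other lines and the LC arrays, while for Krt25 they (0.811 and 0.716) lie close below LC.

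Keratin-associated proteins had a larger median score difference than the hair shaft keratins, mainly within the arrays high in 18S. Of 26 genes measured, 25 lay below all LC arrays (median difference -1.48), again beside 10.8% of all genes. The exception was Krtap13, which scored -1.52 and 0.651 on the L60 arrays, against -0.719, 0.284 and 0.344 on the LC arrays, so that the groups overlapped. The list's median score was -0.690 on L60 1 and 0.0445 on L60 2, against 1.62, 1.04 and 1.06 on the LC arrays. Among these 5 arrays L60 1 was thus lowest and LC 1 highest, and the difference was -2.17 within the arrays high in 18S and -0.992 within the others. The hair shaft keratins had -1.12 and -0.913 there, so the 2 lists were close outside the arrays high in 18S. Scores are scaled for each probe set, so a gap in SDs does not rank 2 gene families. Against the same LC arrays the family stood at -2.04 in L84 and -1.98 in LA. Its median score on LA 2 was -0.688, close to that on L60 1. Many genes of this family are near copies of each other, so signal of one may be read by a probe set of another. Among their 31 probe sets, 1 has the name ending _x_at and 2 the ending _s_at, with which Affymetrix marks probes shared between sequences.

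Krtap9-3 had the smallest adjusted p of the family. It scored -0.368 and -0.124 on the L60 arrays, against 1.27, 1.33 and 1.27 on the LC arrays, a difference of -1.53 ± 0.0949 (limma adjusted p = 0.0892). The 5 family members on chromosome 11, where the acidic hair keratins also lie, had a median of -1.32 with matched differences of -1.55 and -1.17. They include Krtap3-1 (-1.30 ± 0.114), Krtap4-2 (-1.46 ± 0.190) and Krtap1-5 (-1.32 ± 0.237). All 5 lay below the LC arrays.

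On chromosome 16, which holds 16 of the measured members, 15 lay below LC with a median of -1.53, but the matched differences were -2.44 and -0.853. Krtap19-5, of the glycine- and tyrosine-rich kind, scored -0.885 on L60 1 and 0.139 on L60 2, against 1.63, 1.09 and 1.03 on the LC arrays. Krtap8-1 (-0.703 ± 0.164) and Krtap13-1 (-1.11 ± 0.119) had the smallest differences among the non-overlapping members there. The 3 members on chromosome 7, all of the cysteine-rich Krtap5 group, had a median of -1.74, with Krtap5-1 at -1.90 ± 0.433. No member of the family passed the test between L60 and L84 or between L60 and LA, and the family medians of those differences were 0.521 and 0.474.

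The inner root sheath and medulla list had a smaller median difference than the hair shaft lists. Of 14 genes, 11 lay below all LC arrays, beside 10.8% of all genes (median difference -0.483, with -0.232 and -0.618 in the matched differences), while against the same controls L84 and LA stood at -1.98 and -2.02. The 3 that overlapped LC were Krt27, Krt71 and Gata3. Krt25, a keratin of the inner root sheath, scored 0.811 and 0.716 on the L60 arrays, against 0.855, 0.937 and 0.888 on the LC arrays. Its difference of -0.130 ± 0.0525 was the smallest of the list below LC, beside -1.94 in L84 and -1.95 in LA.

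Krt27 and Krt71, further keratins of this sheath, differed by -0.151 ± 0.120 and -0.154 ± 0.139. Tchh, the trichohyalin that hardens the sheath and medulla, scored 0.754 and 0.606 on the L60 arrays, against 0.950, 1.0 and 0.872 on the LC arrays (-0.261 ± 0.0875). S100a3, which binds calcium in cuticle cells of the hair, scored 0.691 and 0.555 on the L60 arrays, against 0.971, 0.973 and 0.983 on the LC arrays (-0.353 ± 0.0416). In each of these the L60 arrays were low by a fraction of the distance at which L84 and LA stood. Tested directly, Krt25, Krt27, S100a3 and Tchh scored higher in L60 than in L84, by 1.81, 1.74, 1.64 and 1.71. Krt25, Krt27, Krt71, Padi3, S100a3 and Tchh scored higher in L60 than in LA, by 1.82, 1.84, 1.79, 1.64, 1.7 and 1.74. The hair shaft and inner root sheath lists thus supplied 8 of the 12 genes that scored higher in L60 than in L84.

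Other members of that list lay further below LC. Gprc5d, an orphan receptor of hair-forming cells, scored -0.00657 on both L60 arrays, against 1.18, 1.22 and 1.29 on the LC arrays (-1.23 ± 0.113). Identical scores within a group narrow the spread used by a gene's test. Ties were common: 44.3% of all probe sets held tied scores, and 93.5% of these were tied at their median. Scores that print alike within a group recur below, among them those of Chac1, Pole, Myc, Tagln, Gli1, Sstr4 and Rhox6, and their SEs are to be read with this limit. The citrullinating enzymes Padi1 and Padi4 differed by -1.31 ± 0.351 and -1.26 ± 0.397, whereas Padi3, the one that modifies trichohyalin, differed by -0.359 ± 0.142. Mt4, a metallothionein of stratified epithelia, differed by -1.35 ± 0.306. Krt72 and Krt75 (-0.795 and -0.612) lay between these and the other keratins of the list.

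The transcription factors that direct the hair matrix gave differences in both directions. Of 23 regulators, 6 lay below and 2 above all LC arrays (26.1% and 8.70%, beside 10.8% and 14.4% of all genes), with a median difference of -0.488 (-0.319 without LC 2). The median was 0.0996 for L60 1 minus LC 1 and -0.653 for the other arrays, so the 2 pairings had opposite signs. Elf5, an ETS factor of differentiating matrix cells, scored -0.510 and -0.630 on the L60 arrays, against 1.18, 1.12 and 1.37 on the LC arrays (-1.79 ± 0.167, limma adjusted p = 0.142). Foxn1, the nude factor needed for hair keratin expression, scored -0.401 and -0.279 on the L60 arrays, against 1.26, 0.737 and 1.72 on the LC arrays (-1.58 ± 0.307, adjusted p = 0.615). For both the L60 arrays were close together and all LC arrays lay above them.

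Hoxc13, a homeobox factor that acts directly on hair keratin promoters, scored 0.566 and 0.701 on the L60 arrays, against 0.718, 1.07 and 1.07 on the LC arrays. Its difference from LC was -0.320 ± 0.171, and it scored 1.77 higher in L60 than in LA (adjusted p = 0.0413). Msx2 differed by -0.311 ± 0.204 and Lef1, the nuclear partner of Wnt signals, by -0.242 ± 0.408, with overlapping groups. Foxq1, a forkhead factor of the medulla, differed by -1.55 ± 0.623, Ovol1 by -0.877 ± 0.457 and Dlx2 by -0.857 ± 0.173. Above LC lay Lhx2, a stem cell factor of the follicle (1.15 ± 0.525), and Vdr, the vitamin D receptor, which the hair cycle requires (1.21 ± 0.571).

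Of 17 BMP response genes, 11 had a negative difference, as did 5604 of all 12393 genes. Of the 17, 5 lay below and 1 above all LC arrays, beside 10.8% and 14.4% of all genes. The median difference was -0.311 (-0.207 without L60 1 and -0.467 without LC 1, with 0.0221 for L60 1 minus LC 1 and -0.511 for the other arrays). The inhibitory Smads, which BMP and TGF-beta signals induce and which then dampen them, were among those below. Smad6 scored -0.0310 and -0.0134 on the L60 arrays, against 0.901, 1.16 and 1.59 on the LC arrays (-1.24 ± 0.203). Smad7 scored -0.686 and 0.404 on the L60 arrays, against 0.606, 1.33 and 1.42 on the LC arrays (-1.26 ± 0.552), with the L60 arrays apart from each other. Bambi, a decoy receptor, scored 0.697 and 0.384 on the L60 arrays, against 0.956, 1.13 and 0.958 on the LC arrays (-0.473 ± 0.107). It was higher in L60 than in L84 by 1.49 (adjusted p = 0.0482) and than in LA by 1.65 (adjusted p = 0.0172).

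The Id genes, inhibitors of differentiation that BMP signals switch on in many cells, had differences of both signs. Id3 scored 0.926 and 1.39 on the L60 arrays, against 0.204, 0.606 and 0.814 on the LC arrays, and was the 1 member above LC (0.617 ± 0.304). Id1 and Id4 overlapped LC (-0.0830 ± 0.665 and -0.0771 ± 0.439). Id2 lay below LC (-0.644 ± 0.676), but its 3 probe sets ran from -2.50 to 0.985. Upstream, 6 of 31 BMP ligands, receptors, Smads and antagonists lay above and 1 below all LC arrays (beside 14.4% and 10.8% of all genes), with a median difference of 0.132 that was 0.0211 without LC 1, 0.0877 without L60 1 and 0.246 without LC 3. The 1 below was Bmp2, a ligand (-0.886 ± 0.911). Bmp4 (0.132 ± 0.403), the receptor Bmpr1a (-0.246 ± 0.326) and the antagonist Nog (-0.0112 ± 0.687) overlapped LC.

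Genes of DNA replication stood above the controls in L60. Of 34 measured, 32 had a positive difference (54.8% of all genes did) and 17 lay above all LC arrays (14.4% of all genes), with 0 below, and the median difference was 0.637. The list's median score was 0.736 and 1.06 on the L60 arrays, against 0.169, 0.372 and 0.276 on the LC arrays, without overlap, and the matched differences were 0.553 and 0.593. Without L60 1 the count above LC was 26, a larger number because fewer arrays have to clear. Against the same controls the list stood at -0.444 in L84 and -1.26 in LA, below LC where L60 stood above it.

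Pola1, the catalytic subunit of the polymerase that primes new DNA strands, scored 1.41 and 1.75 on the L60 arrays, against -0.260, -0.127 and -0.468 on the LC arrays (1.86 ± 0.173, limma adjusted p = 0.142). Pole, the leading-strand polymerase, scored 1.55 and 1.44 on the L60 arrays, against -0.142, -0.142 and 0.127 on the LC arrays (1.55 ± 0.461). Both had L60 arrays close together and far above LC. Cdc45 and Cdc6, which load and activate the replicative helicase, differed by 1.46 ± 0.626 and 1.18 ± 0.903. Of the helicase subunits, Mcm2, Mcm3, Mcm4, Mcm6 and Mcm7 lay above LC, with differences of 0.481, 0.560, 0.906, 0.680 and 0.651. Mcm7 scored 1.06 and 1.11 on the L60 arrays, against 0.292, 0.567 and 0.454 on the LC arrays. Pola1, Mcm2, Mcm4, Mcm6, Mcm7 and the clamp loader subunit Rfc4 scored higher in L60 than in LA past limma's threshold, by 2.72, 2.47, 2.54, 2.58, 2.38 and 2.44.

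Mitosis genes followed with smaller differences. Of 37, 34 had a positive difference (54.8% of all genes did) and 16 lay above all LC arrays (14.4% of all genes), with 0 below and a median of 0.386 (0.323 and 0.413 in the matched differences). The count was 27 without L60 1 and 25 without LC 1, where fewer arrays have to clear. Mki67, the proliferation marker, scored 1.05 and 0.842 on the L60 arrays, against 0.740, 0.519 and 0.454 on the LC arrays (0.375 ± 0.195). The condensin subunits Smc4 and Ncapd2, which compact chromosomes, differed by 0.784 ± 0.250 and 0.766 ± 0.276, and the midbody kinesins Kif20a and Kif23 by 0.928 ± 0.422 and 0.818 ± 0.512. Mki67, the cell cycle kinase subunit Cks2 and the centromeric histone Cenpa scored higher in L60 than in LA, by 2.51, 2.49 and 2.35. None of the mitosis or replication genes passed the test between L60 and L84. Myc, an immediate early factor of growth, scored 1.62 and 1.60 on the L60 arrays, against -0.755, -0.133 and -0.133 on the LC arrays (1.95 ± 0.426, adjusted p = 0.689). It had the largest difference in a list of 19 immediate early genes. Of these, 3 lay above and 0 below all LC arrays, beside 14.4% and 10.8% of all genes, and 8 had a negative difference. That list's median of 0.1895 was 0.0158 without LC 1 and 0.0209 without L60 1. The cyclins Ccnd1 and Ccnd2 overlapped LC (0.416 ± 0.344 and 0.463 ± 0.377).

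**Figure D2:**
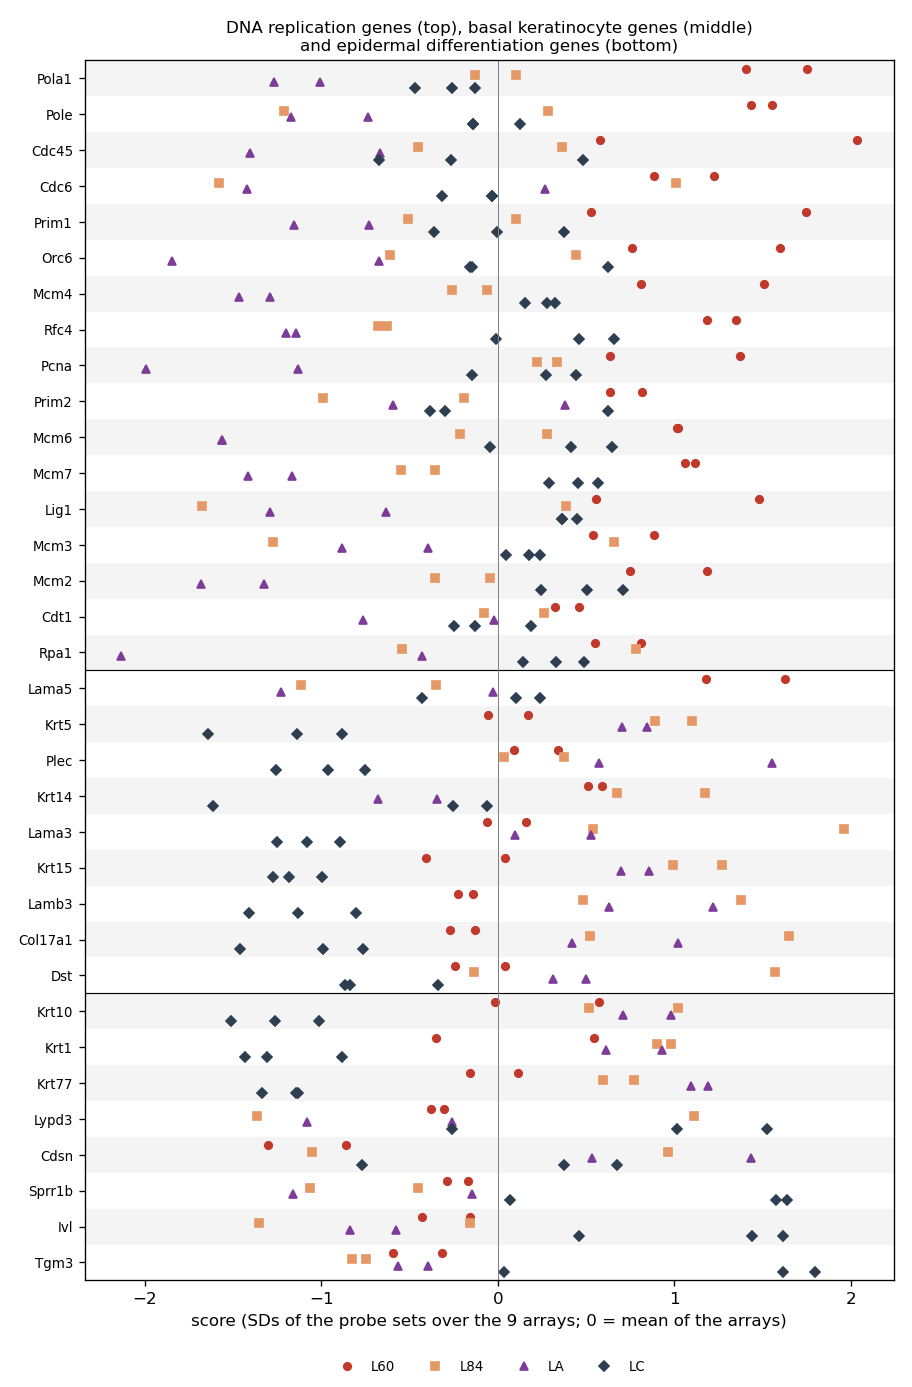
Scores on each array of the 17 DNA replication genes above all LC arrays (top), the 9 basal keratinocyte genes above them (middle) and 8 epidermal differentiation genes (bottom). The 8 are 3 of the 5 of that list above LC (Krtdap and Dmkn are not drawn) and all 5 below. The horizontal axis is the score in SDs of the probe sets over the 9 arrays, and points are single arrays of L60, L84, LA and LC. Pola1 has its L60 arrays (1.41 and 1.75) right of every other array, while for Krt5 the L60 arrays (-0.0532 and 0.169) lie between LC and the other lines.

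Markers of basal keratinocytes, the dividing layer of the epidermis and outer root sheath, also stood above the controls. Of 18, 9 lay above and 1 below all LC arrays, beside 14.4% and 10.8% of all genes (median difference 0.721, with 0.657 and 0.597 in the matched differences). The basal keratin Krt5 scored -0.0532 and 0.169 on the L60 arrays, against -1.64, -0.880 and -1.14 on the LC arrays (1.28 ± 0.244, limma adjusted p = 0.606). Its partner Krt14 scored 0.593 and 0.512 on the L60 arrays, against -1.61, -0.0624 and -0.254 on the LC arrays (1.20 ± 0.518). LC 1 was the lowest array for both. Krt15, a basal and bulge keratin, differed by 0.969 ± 0.179.

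Of the 9 above LC, 5 encode parts that anchor basal cells to the basement membrane and had positive differences in L84 and LA as well: the collagen Col17a1 (0.871 ± 0.424), the laminin chains Lamb3 (0.933 ± 0.357) and Lama3 (1.13 ± 0.446), and the linkers Plec (1.21 ± 0.342) and Dst (0.579 ± 0.531). Lama5, a laminin chain that hair growth needs, scored 1.63 and 1.18 on the L60 arrays, against -0.428, 0.242 and 0.101 on the LC arrays (1.43 ± 0.476), beside -0.704 in L84 and -0.600 in LA. The 1 member below was the growth factor receptor Egfr (-0.680 ± 0.338), whose 5 probe sets ran from -1.33 to 0.747.

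Of 31 epidermal differentiation genes, 5 lay above and 5 below all LC arrays, shares of 16.1% each beside 14.4% and 10.8% of all genes. The median difference of -0.0666 was -0.815 without L60 1, 0.663 without L60 2, 0.545 without LC 1 and -0.123 without LC 2. The 5 above LC were Krt10, Krt1, Krt77, Krtdap and Dmkn. Krt10, a suprabasal keratin, scored 0.574 and -0.0158 on the L60 arrays, against -1.01, -1.51 and -1.26 on the LC arrays (1.54 ± 0.277), and its partner Krt1 differed by 1.31 ± 0.324. Krt77, a keratin of sweat ducts and mouse epidermis, scored 0.115 and -0.156 on the L60 arrays, against -1.34, -1.15 and -1.13 on the LC arrays (1.19 ± 0.117, adjusted p = 0.143). It was lower in L60 than in LA, by a difference of -1.16 (adjusted p = 0.0448). Krtdap and Dmkn, secreted by suprabasal cells, were above LC by 0.797 ± 0.320 and 0.753 ± 0.284.

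The 5 below LC were Tgm3, Ivl, Sprr1b, Cdsn and Lypd3. Tgm3, a transglutaminase that cross-links envelope and hair proteins, scored -0.591 and -0.317 on the L60 arrays, against 0.0360, 1.79 and 1.61 on the LC arrays (-1.60 ± 0.567). Involucrin (Ivl) differed by -1.47 ± 0.510, Sprr1b by -1.32 ± 0.617, Cdsn by -1.18 ± 0.785 and Lypd3 by -1.10 ± 0.922. In all 5, LC 1 lay nearer to the L60 arrays than LC 2 and LC 3 did. Of the stress keratins, Krt6a (-0.846 ± 0.906), Krt16 (-0.138 ± 1.04) and Krt17 (-0.0620 ± 0.336) overlapped LC. Il33, an alarm cytokine stored in epithelial nuclei, scored 0.196 and -0.0576 on the L60 arrays, against -0.921, -1.18 and -1.30 on the LC arrays (1.20 ± 0.256). It comes from a list of 19 stress keratins, alarmins and connexins that went both ways. Of these, 2 lay above and 3 below all LC arrays, beside 14.4% and 10.8% of all genes. The list's median of 0.0618 was -0.0677 without L60 1 and -0.0192 without LC 1. Gjb2, the connexin 26 of gap junctions, differed from LC by -0.140 ± 0.102 but scored higher in L60 than in L84 by 1.63 and than in LA by 1.95, and was named after its values were seen.

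**Figure D3:**
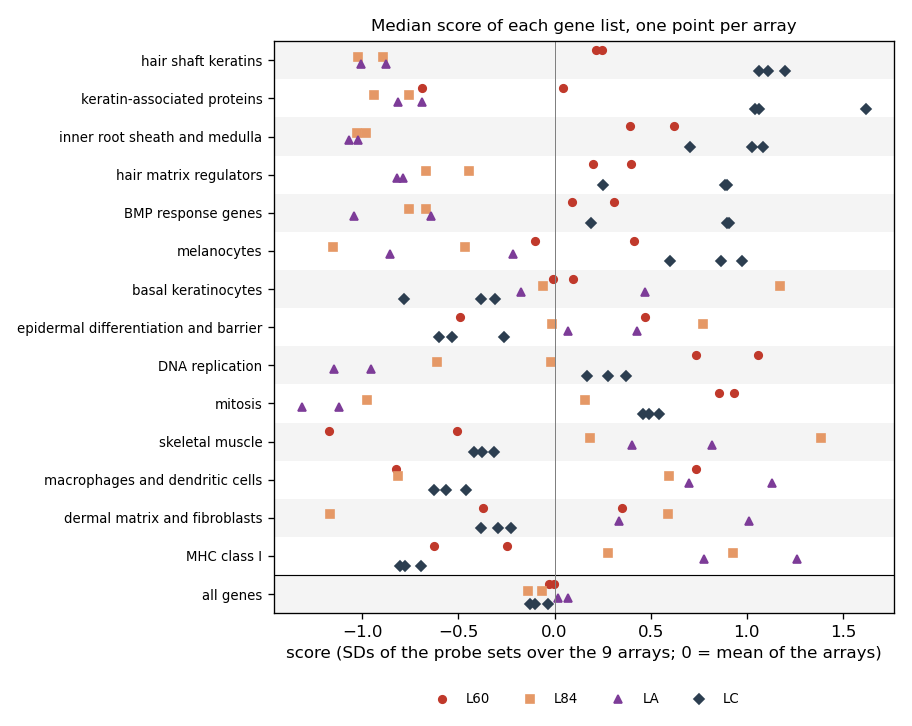
Median score of 14 gene lists and of all genes on each array; the horizontal axis is the score in SDs of the probe sets over the 9 arrays, and points are single arrays of L60, L84, LA and LC. For hair shaft keratins the L60 medians (0.218 and 0.246) lie between the other lines and LC, and for DNA replication (0.736 and 1.06) they lie above every other array.

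Most pigment genes overlapped the controls. Of 17 melanocyte genes, 16 had a negative difference (5604 of all 12393 genes did) and 5 lay below all LC arrays (10.8% of all genes did). The median was -0.687, and -0.323 without L60 1 (-0.508 and -0.459 in the matched differences). Those below were Rab38, a sorter of melanosome cargo (-1.5 ± 0.662), Oca2, a melanosome transporter (-1.06 ± 0.358), Gpr143 (-0.735 ± 0.583), Pmel, the fibril protein of melanosomes (-0.734 ± 0.250), and Tyr, the first enzyme of melanin synthesis (-0.691 ± 0.438). The enzymes Tyrp1 and Dct were little apart from LC (-0.248 ± 0.123 and -0.228 ± 0.133). Both scored higher in L60 than in LA, by 1.75 and 2.11.

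Lists for other skin cells depended on which arrays were set against each other. Macrophage and dendritic cell markers had 7 of 29 above and 0 below all LC arrays, beside 14.4% and 10.8% of all genes. Their median of 0.491 was -0.236 without L60 2 and 1.22 without L60 1, and the matched differences were -0.273 and 1.28. Cd163, a scavenger receptor of macrophages, scored 0.227 on L60 1 and 2.32 on L60 2, against -0.289, -0.382 and -0.898 on the LC arrays. Markers of dermal matrix and fibroblasts had 7 of 30 above and 0 below LC with a median of 0.289, which was -0.0256 without L60 2 and 0.691 without L60 1. Skeletal muscle genes had 7 of 35 below and 1 above LC, beside 10.8% and 14.4% of all genes, with a median of -0.338, which was 0.0035 without L60 1 and -0.657 without L60 2. Myod1, a master factor of muscle, scored -1.64 and -0.0750 on the L60 arrays, against 1.16, 0.622 and 0.312 on the LC arrays. In L84 and LA the muscle list stood at 1.17 each against the same LC arrays.

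Antigen presentation, blood and nerve genes gave smaller sets. MHC class I genes had 5 of 11 above and 0 below all LC arrays, beside 14.4% and 10.8% of all genes. Their median was 0.205 (0.493 without L60 1 and 0.114 without L60 2), beside 1.48 in L84 and 1.99 in LA. B2m, the light chain of the class I complex, scored -0.508 and -0.360 on the L60 arrays, against -1.25, -0.847 and -1.0 on the LC arrays (0.599 ± 0.166). H2-K1, a class I heavy chain, was 0.245 above LC and lower in L60 than in LA by a difference of -1.95 (adjusted p = 0.0172). MHC class II genes had 3 of 8 above and 0 below LC (median 0.260, and 0.415 without L60 1), and the list's median difference of L60 minus LA was -1.92. H2-Eb1 (0.221 ± 0.174 against LC) went against that list, scoring 2.02 higher in L60 than in LA (adjusted p = 0.0339). The median of the 6 red blood cell genes was -0.634, with the anion exchanger Slc4a1 (-1.18 ± 0.322) and the mitochondrial iron importer Slc25a37 (-1.02 ± 0.190) below LC. Of 13 Schwann cell and myelin genes 4 lay above and 1 below LC, beside 14.4% and 10.8% of all genes, with Mbp, myelin basic protein, at 0.944 ± 0.157 over its 8 probe sets.

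The smooth muscle gene Tagln, an actin-binding protein, scored 1.21 and 1.32 on the L60 arrays, against 0.515, 0.0849 and 0.0849 on the LC arrays (1.04 ± 0.196). It was 2.74 higher in L60 than in L84 (adjusted p = 0.0482), and was named from a list of 12 that went both ways. In that list 3 genes lay above and 0 below LC, beside 14.4% and 10.8% of all genes, 6 had a positive and 6 a negative difference, and the median of -0.0622 was 0.0538 without L60 1, 0.0758 without L60 2, 0.10 without LC 1, -0.158 without LC 2 and -0.129 without LC 3. In the dermal papilla list 2 of 16 lay above and 0 below LC, and the median of 0.0815 ran from -0.10 without LC 2 to 0.336 without LC 3. The 2 above included Vcan, a proteoglycan of the papilla (1.41 ± 0.377). Hedgehog genes had 5 of 13 above and 2 below LC with a median of 0.0518, which ran from -0.0805 without L60 1 to 0.221 without LC 3. The target and mediator Gli1 scored 1.7 and 0.928 on the L60 arrays, against 0.00242, 0.123 and 0.123 on the LC arrays (1.23 ± 0.510), and the ligand Shh was 0.771 ± 0.914 above LC. Of the 45 Wnt pathway genes 5 lay above and 4 below LC (median 0.0902, from 0.0240 without L60 1 to 0.180 without LC 1). Of the 21 Notch genes 4 lay above and 5 below (median -0.0756, from -0.307 without LC 1 to 0.138 without LC 3). The Notch-modifying enzyme Rfng scored -0.789 and -0.233 on the L60 arrays, against 0.770, 0.889 and 0.839 on the LC arrays (-1.34 ± 0.250).

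Among amino acid stress genes 6 of 18 lay below and 2 above all LC arrays, beside 10.8% and 14.4% of all genes. Their median was -0.254, and -0.541 without L60 2 and -0.446 without LC 1. Chac1, a glutathione-degrading enzyme, scored -0.311 on both L60 arrays, against 1.37, 1.27 and 1.20 on the LC arrays (-1.59 ± 0.104, limma adjusted p = 0.0892), beside -2.31 in L84 and -1.87 in LA. Its identical L60 scores narrow the spread used by the test. Phgdh, the first enzyme of serine synthesis, was above LC (0.953 ± 0.204). Of 48 cytosolic ribosomal proteins 6 lay above and 0 below LC, of 85 oxidative phosphorylation genes 5 above and 11 below, and of 25 FOXO factors and targets 0 above and 2 below.

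In the lists that follow, single members stood further from LC than their list did, and the shares of all genes above and below LC are again 14.4% and 10.8%. Of 20 markers of the hair bulge, the stem cell niche of the follicle, 6 lay above and 2 below all LC arrays (median 0.229, and 0.138 without LC 2, beside 0.782 in L84 and 0.791 in LA). Cd200, a surface protein of bulge cells, scored 2.0 and 0.582 on the L60 arrays, against -0.456, -0.236 and -0.859 on the LC arrays (1.81 ± 0.633). Of 16 sebaceous gland genes 3 lay above and 3 below LC, among them Dgat2, an enzyme of triglyceride synthesis, which scored -1.64 and -1.0 on the L60 arrays, against 0.244, 0.210 and 0.399 on the LC arrays (-1.61 ± 0.360). Of 19 cholesterol synthesis genes 4 lay below and 1 above LC, with the sterol reductase Tm7sf2 at -1.75 ± 0.778. Among 20 adipocyte genes 12 had a negative difference (5604 of all 12393 genes did), with a median of -0.198 that was 0.0368 without L60 1 and -0.560 without L60 2. Of these genes 3 lay above LC, with the fat cell regulator Pparg at 1.47 ± 0.845, and 1 below, the carbonic anhydrase Car3 (-1.48 ± 0.559). Endothelial genes had 4 of 21 above and 2 below, with the vessel factor Sox18 at 1.61 ± 0.774. In Pparg and Sox18 the 2 L60 arrays were more than 1 score unit apart.

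**Figure D4:**
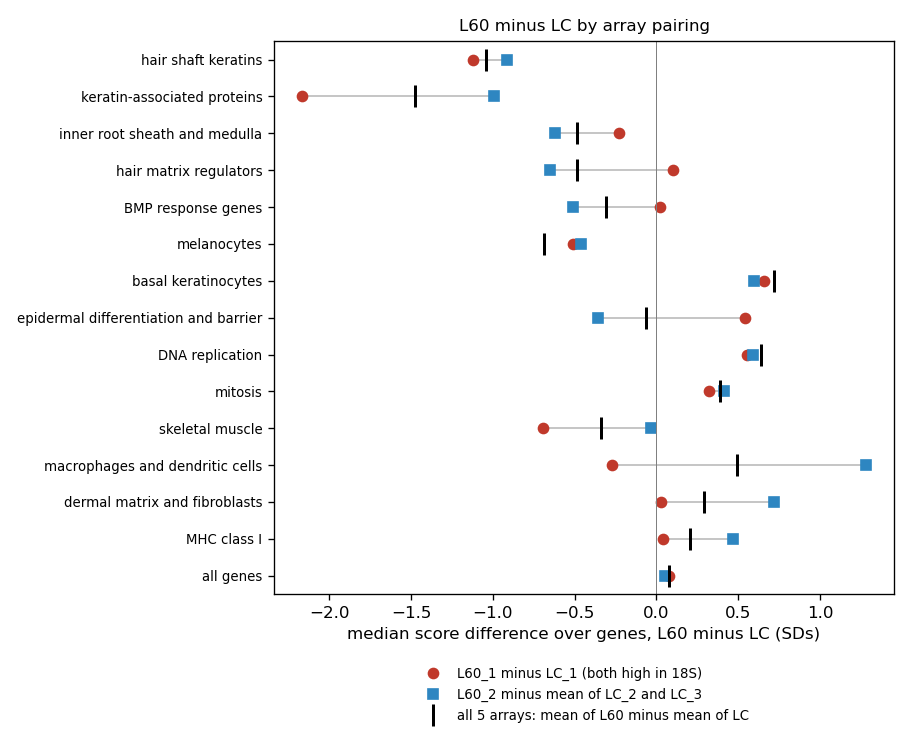
Median over the genes of a list of the score difference L60 minus LC, in SDs, for L60 1 minus LC 1 (circles), L60 2 less the average of LC 2 and LC 3 (squares) and all 5 arrays (vertical marks). Hair shaft keratins lie left of 0 in both pairings (-1.12 and -0.913) and DNA replication genes right of it (0.553 and 0.593), while macrophage genes lie on both sides (-0.273 and 1.28).

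Beyond the lists, genes were also taken by the size of their difference. A score is scaled by the spread over all 9 arrays, so a gene that differs in L60 alone gets a larger difference than one that also differs in L84 and LA. Of the genes with an unadjusted p under 0.05 and no overlap, 299 were above and 274 below LC after predicted genes were set aside, and the 15 largest of each were named. Below LC the largest was Slc23a3, a transporter of the ascorbate transporter family. It scored -1.74 and -1.55 on the L60 arrays, against 0.303, 0.690 and 1.30 on the LC arrays (-2.41 ± 0.306, limma adjusted p = 0.309), beside -0.562 in L84 and -0.468 in LA. Sstr4, a somatostatin receptor, scored -1.62 and -1.66 on the L60 arrays, against 0.346, 1.37 and 0.346 on the LC arrays (-2.33 ± 0.372). Kcnj11, a subunit of ATP-sensitive potassium channels, differed by -2.30 ± 0.420.

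Also below were the fatty acid transporter Slc27a4, which the skin barrier needs (-2.08 ± 0.580), the secretory GTPase Rab27b (-2.06 ± 0.567) and the hypoxia factor Epas1 (-2.05 ± 0.660). Above LC the largest was Tenm3, a teneurin of cell contacts, which scored 0.434 and 1.99 on the L60 arrays, against -0.976, -1.21 and -0.966 on the LC arrays (2.26 ± 0.474). Rhox6, an X-linked homeobox gene of germ cells and placenta, scored 1.54 and 1.8 on the L60 arrays, against -0.962, -0.283 and -0.283 on the LC arrays (2.18 ± 0.363), beside -0.0631 in L84 and 0.180 in LA. Itgb1bp1, a regulator of integrins, differed by 2.22 ± 0.446, and the antioxidant enzyme Gpx1 by 2.09 ± 0.589. Cinp, a partner of replication kinases, differed by 2.15 ± 0.517. The other 19 of the 30 genes ranged from -2.20 to -2.05 below LC and from 2.08 to 2.23 above it. Each of the 30 but Rab27b was read by 1 probe set.

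**Figure D5:**
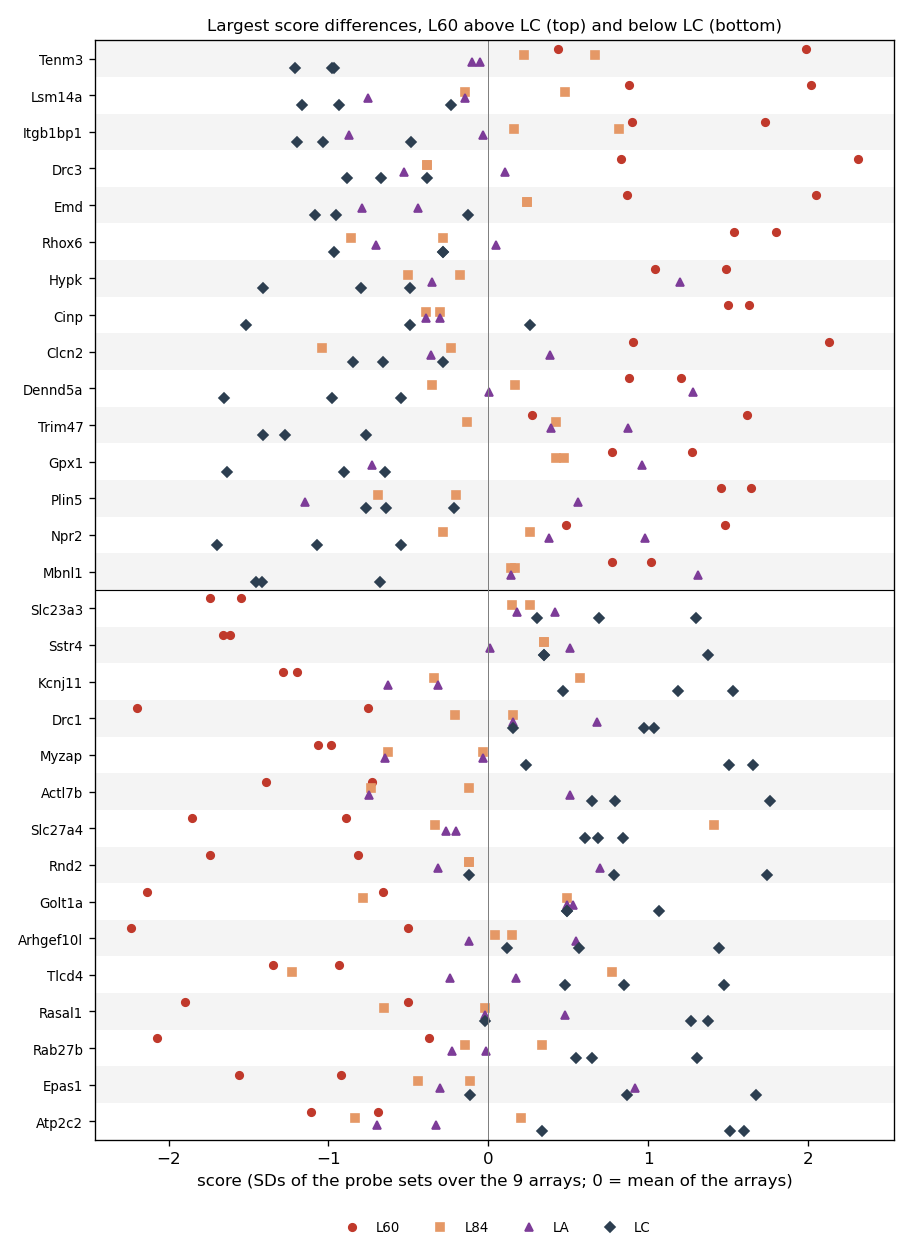
Scores on each array of the 15 genes with the largest positive (top) and negative (bottom) difference L60 minus LC; the horizontal axis is the score in SDs of the probe sets over the 9 arrays, and points are single arrays of L60, L84, LA and LC. The L60 arrays of Slc23a3 (-1.74 and -1.55) lie left of all other arrays, and those of Rhox6 (1.54 and 1.8) right of them.

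Among the 15 genes with the smallest p, named after their values were seen, 11 are described above (Krt34, Krtap9-3, Chac1, Krt86, Krt33a, Krtap3-1, Gprc5d, Pola1, Elf5, Krt77 and Krt36). Of the other 4, the calpain protease Capn12 scored -0.140 and -0.192 on the L60 arrays, against 1.10, 1.40 and 1.28 on the LC arrays (-1.43 ± 0.114). Cybrd1, an iron reductase, scored -0.677 and -0.530 on the L60 arrays, against 1.24, 0.996 and 1.49 on the LC arrays (-1.84 ± 0.175). Stat6, the transducer of interleukin-4 signals, scored 0.106 and 0.0852 on the L60 arrays, against -0.745, -0.738 and -0.552 on the LC arrays (0.774 ± 0.0763). Fbxw2, an adaptor of a ubiquitin ligase, was also above LC (0.957 ± 0.0914), but its 6 probe sets ran from 0.237 to 2.32. The adjusted p of these 4 genes was 0.142 or 0.143.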

How the data were processed

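RNA of whole mouse skin was measured on 9 Affymetrix arrays, of which 5 (2 L60, 3 LC) carry the comparison. The submitters' processing notes name RMA. The deposited value is a score, standardised in the deposited table so that a probe set averages 0 with an SD of 1 across arrays (scores run from -2.66 to 2.67), so levels, folds and depth are unknown. No rounding step shared by probe sets was found (0 of 22690), so the planned return to a common scale was not run. Of the 22690 probe sets, 64 are controls, 20380 name 1 gene, 691 several and 1555 none. Probe sets that name 1 gene alone were averaged per gene, which gave 12393 genes, 4956 of them with several probe sets. Among genes picked out by rule, as list members or after their values were seen, 167 had several probe sets. For 54 of these the probe sets gave L60 minus LC differences of both signs.

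A model of the 4 group means on all 9 arrays was fitted (limma 3.58.1, R 4.3.3) with each gene's own variance and Benjamini-Hochberg adjustment over all genes (threshold 0.05). The other steps used Python 3.11.15. The fit was tested on simulated data with 200 of 12393 genes shifted: for L60 minus LC it recovered 6% of shifts of 5 residual SDs, 96% of 10 and 100% of 20. In these runs 0, 10 and 9 unchanged genes were called. All 200 genes were shifted by the same amount and in L60 alone, which eases the adjustment. The rates therefore do not give the recovery in the real data, where the number and sizes of the shifts are unknown. The tests of L60 against L84 and LA, and the counts within arrays of like 18S score, were added after the data were seen. Members and the 45 gene lists were chosen with earlier results of these data known. Genes were named by rule: the 15 largest differences each way among genes with unadjusted p under 0.05 and no overlap, up to 5 non-overlapping members per list by size, and fixed genes of hair, epidermis, Akt and BMP. The 15 genes with the smallest p, and genes past the test against L84 or LA, were named after their values were seen. Alternatives left out each array, fitted only L60 and LC, used the replicate number as a block, array weights, moderated variance or single probe sets, and set array medians to 0.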

Additional observations from a re-analysis of the deposited data

Results flagged for a closer look

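These genes stood apart because a direct limma test of L60 against another line passed the adjusted threshold of 0.05, although none passed it against LC. The lines share the LC arrays, so the differences are set between the lines themselves. Against L84, hair genes scored higher in L60, Krt25 by 1.81, Krt27 by 1.74, Krt31 by 1.52, Krt33a by 1.45, Krt34 by 1.14, Krt35 by 1.69, S100a3 by 1.64 and Tchh by 1.71. The BMP decoy receptor, the actin-binding protein and the connexin also scored higher, Bambi by 1.49, Gjb2 by 1.63 and Tagln by 2.74. For these hair genes L60 lay below LC by less than L84 did, from -0.130 for Krt25 (-1.94 in L84) to -1.08 for Krt34 (-2.23 in L84). All of them but Krt27 lay below all LC arrays in L60. Tagln, by contrast, had opposite signs against LC, 1.04 in L60 and -1.71 in L84.

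Against LA, hair genes and their regulator Hoxc13 scored higher in L60, Hoxc13 by 1.77, Krt25 by 1.82, Krt27 by 1.84, Krt31 by 1.44, Krt33a by 1.39, Krt34 by 0.990, Krt35 by 1.78, Krt71 by 1.79, Krt86 by 1.06, Padi3 by 1.64, S100a3 by 1.7 and Tchh by 1.74. Replication and mitosis genes scored higher as well, Cenpa by 2.35, Cks2 by 2.49, Mcm2 by 2.47, Mcm4 by 2.54, Mcm6 by 2.58, Mcm7 by 2.38, Mki67 by 2.51, Pola1 by 2.72 and Rfc4 by 2.44, and for all 9 the difference from LC was positive in L60 and negative in LA. Also higher were 2 of the 17 melanocyte genes, 2 genes already named against L84, and H2-Eb1, whose class II list had a median difference of -1.92 the other way, Bambi by 1.65, Dct by 2.11, Gjb2 by 1.95, H2-Eb1 by 2.02 and Tyrp1 by 1.75. Lower in L60 than in LA were Krt77, with a difference of -1.16, and H2-K1, with a difference of -1.95. What sets L60 apart from the other lines is not given in the sources used here and was not tested.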

How the results depend on the processing

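The count of genes past the threshold against LC, 0 as reported, ranged from 0 to 5 when single arrays were left out, and was 4 with only the L60 and LC arrays fitted and 9 with array weights. With the replicate block it was 1. For pairs sharing a number, deviations from the group means had correlations across genes of 0.160 (L60 1 and LC 1) and 0.0901 (L60 2 and LC 2). The scores themselves had correlations of 0.113 and 0.118. Xist, however, was lower on replicate 1 than on the other arrays of each group (-0.900 on L60 1, -1.06 on L84 1, -0.822 on LA 1 and -0.915 on LC 1). What arrays of the same number share is not given in the sources used here and was not tested. It stayed at 0 with moderated variance and with single probe sets. Genes whose arrays do not overlap numbered 3116, and 4029 to 7448 when an array was left out (7063 without L60 1, 7448 without L60 2 and 5396 without LC 1), since fewer arrays have to clear, and 4714 of 20380 probe sets. DNA replication genes above LC numbered 17, and 18 to 26 when an array was left out, 26 for L60 2 against LC 2 and LC 3 and 31 for L60 1 against LC 1. For mitosis the counts were 16, 17 to 27 when an array was left out, 32 and 28, and for basal keratinocytes 9, with 16 for L60 1 against LC 1. Over all genes, L60 2 lay above LC 2 and LC 3 in 41.7%, and L60 1 above LC 1 in 53.6%. These shares, not the 14.4% for all 5 arrays, are the background of the counts within pairings. These pairings of like arrays were chosen after seeing the data. The median of hair shaft keratins (-1.04) ranged from -1.11 to -0.934 when an array was left out and was -1.115 with array medians set to 0. That of mitosis (0.386) ranged from 0.316 to 0.479 and was 0.315. For these the cause was not tested. Setting array medians to 0 moved the difference of all genes by 0.0709. Of 45 list medians 19 turned sign under an alternative, as did 12 of the 152 genes named with values, among them Akt1, Id1 and Bmp4. All alternatives planned on a common scale were not run, because that scale could not be recovered. The tests of L60 against L84 and LA were not refitted without single arrays. With 2 and 3 arrays a group, simulated shifts of 5 residual SDs were mostly missed (6% recovered). The simulation shifted 200 genes by the same amount in L60 alone. Its rates therefore do not give the recovery in the real data.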
